A study of Mus musculus with 4 samples.

Results

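The genes of the insulin-like growth factor (IGF) axis examined here were 6 IGF binding proteins (Igfbp2 to Igfbp7), the ligands Igf1 and Igf2, and the receptors Igf1r and Igf2r. They were taken by symbol, 10 of 19938 named genes, and were chosen by the measured signals: Igfbp2 was among the genes most raised in cells with a p63 virus. The values of p63 against GFP cells that selected them are given as a description. Each of the 10 genes was read by 1 probe set of the array.

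The IGF ligands are secreted growth factors that signal through Igf1r, a receptor tyrosine kinase that feeds the PI3K to AKT and RAS to ERK pathways. Igf2r, also the receptor for mannose phosphate, takes up IGF2 and delivers it to lysosomes without such signalling. The binding proteins hold the ligands outside cells, and depending on the protein, its cleavage and its attachment to matrix or cell surface they limit or prolong the ligands' action. Fibroblasts are a common source of IGFs and their binding proteins, and IGF1 is widely used as a survival factor in culture.

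The cells were mouse embryonic fibroblasts of a C57BL/6 background, prepared from an embryo at day 13.5, that lacked BAX and BAK, effectors of mitochondrial apoptosis, and had been transformed with SV40. All 4 conditions share this genotype and the transformation. One line carried a retrovirus for GFP and the other a retrovirus for p63, the p53-family transcription factor of stratified epithelia, and each was mock-treated or exposed to etoposide, a topoisomerase II poison, for 6 h before RNA extraction. The dose was 10 µg/mL in the treatment protocol and the same number per microlitre in other labels. The labels do not say which promoter drives the inserts, which p63 isoform was used or whether a line is a single clone. Total RNA of each condition was hybridised to 1 Affymetrix mouse array.

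With 1 array in each condition there is no spread between replicates, so differences are given by size and no p-value is given. Values are log2 signals, a difference of 1 is 2-fold, and a gene counts as called, higher or lower, from a difference of 1 upwards. Pairs of values for a line give mock treatment first and etoposide second. A signal under 5.87, the median of all named probe sets, is near background and is called dim here. Of the genes, 10698 reached 5.87 on at least 1 array, and their median difference was -0.14 for p63 minus GFP in mock-treated cells, 0.02 for the same in etoposide-treated cells, -0.08 for etoposide minus mock in GFP cells and 0.10 in p63 cells. Trp63 itself read 4.87 and 5.59 on the GFP arrays and 8.75 and 9.29 on the p63 arrays. For 78 genes the mock-treated p63 array stood apart from the rest, against 22, 1 and 2 genes for the other arrays, and 0 of the members were among these. Of 11 fibroblast markers, 7 reached 5.87 on at least 1 array, among them Col1a1 and Vim, while Thy1, Pdgfra, Dcn and Lum were dim on every array. Of 25 measured markers of blood, endothelial, muscle, fat and liver cells, 5 reached it.

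Of the 10 members, 8 reached 5.87 on at least 1 array. Igf1 and Igfbp6 were dim on all 4 arrays. Igfbp3, Igfbp5 and Igf2 reached it on both arrays of p63 cells and on neither array of GFP cells, so each passed through the p63 cells alone. Igfbp7, Igf1r and Igf2r were above it everywhere. In the plot of member signals by array, Igfbp2, Igfbp3 and Igfbp5 change level between the lines, and Igfbp7 and Igf2r stay nearly flat.

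**Figure D1:**
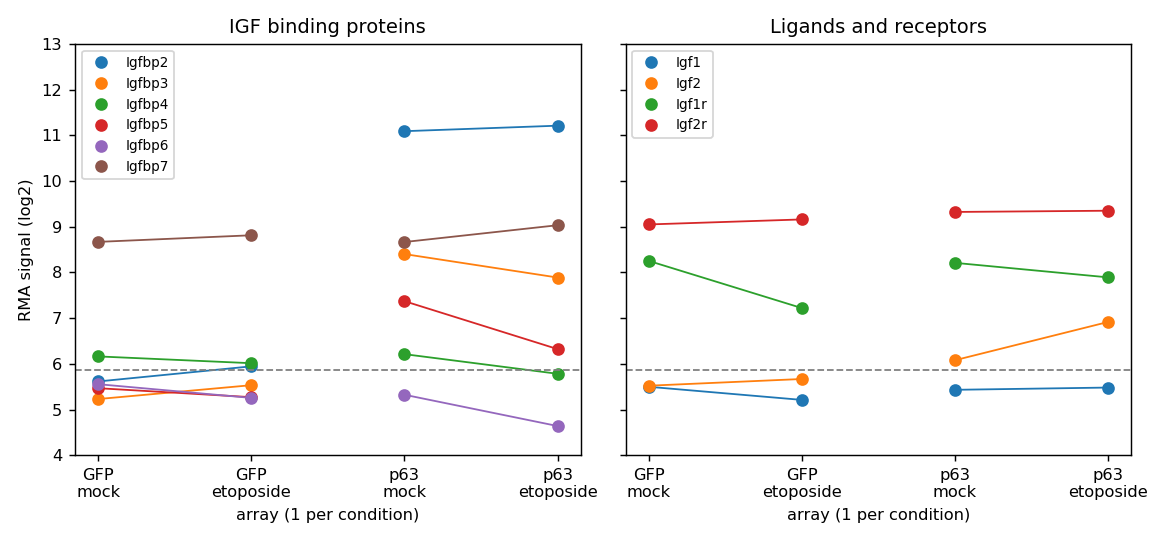
RMA signal (log2) of the 6 binding proteins (left) and of the 4 ligand and receptor genes (right) on the 4 arrays, with 1 point per gene and array and lines joining mock and etoposide within a line of cells. The dashed line is the 5.87 below which a signal is called dim. Igfbp2 lies at 5.62 and 5.95 in GFP cells and at 11.09 and 11.21 in p63 cells.

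The comparison of p63 with GFP cells asks what p63 changes in these fibroblasts. Among the binding proteins Igfbp2, Igfbp3 and Igfbp5 were called higher with p63 in both comparisons, and none was called lower. In mock-treated cells 3 of the 8 members that passed were higher, where 2.42% of all genes were (3.81% with arrays centred on their medians). In etoposide-treated cells 4 of 8 were higher, where 1.38% of all genes were, the additional gene being Igf2. With arrays centred 3 of 8 were higher there, where 1.11% of all genes were. Under both treatments 3 of 8 were higher, against 0.925% of all genes. The etoposide call of Igfbp5 ended with arrays centred, at 0.97, and with dim signals raised, at 0.45. Igfbp2 and Igfbp3 kept both calls under these settings. The members were chosen with this comparison in view, so nothing is read from these shares.

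Igfbp2, a binding protein of fetal tissues that is abundant in many tumours, read 5.62 and 5.95 on the GFP arrays and 11.09 and 11.21 on the p63 arrays. Both p63 arrays stood far above both GFP arrays, and the 2 arrays of each line lay within 0.33 of each other. The difference was 5.48 in mock-treated cells and 5.27 in etoposide-treated cells, and each was the highest among the 10698 genes. In etoposide-treated cells, where the GFP signal of 5.95 was only just above 5.87, it amounted to 38.5-fold. In mock-treated cells, where the GFP signal was dim, it amounted to at least 37.3-fold with that signal raised to 5.87. In bulk RNA, more cells with a transcript and more transcript per cell cannot be told apart.

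Igfbp3, the main carrier of IGFs in serum and a known target of p53, read 5.23 and 5.53 on the GFP arrays and 8.40 and 7.89 on the p63 arrays. The lines did not overlap, and both GFP signals were dim. The differences of 3.17 and 2.36 ranked 14 and 17 from the top of all genes, and were at least 5.79-fold and 4.05-fold with the dim signals raised.

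Igfbp5, a binding protein that attaches to extracellular matrix, read 5.47 and 5.27 on the GFP arrays and 7.37 and 6.32 on the p63 arrays. It was highest in mock-treated p63 cells, and its lead over GFP cells was smaller on the etoposide arrays. The difference was 1.90 in mock-treated cells, at least 2.83-fold with the dim signal raised. In etoposide-treated cells it was 1.05, only just past the threshold. It was 0.97 with arrays centred on their medians and 0.45 with the dim signal raised, so this call rests on the scaling and on a signal near background. The larger difference rests on the mock-treated p63 array, which stood apart for 78 genes, though not for Igfbp5.

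The other binding proteins differed little between the lines. Igfbp4, which PAPP-A cleaves, read 6.16 and 6.02 on the GFP arrays and 6.21 and 5.78 on the p63 arrays. Igfbp7, a matrix protein with weak affinity for IGFs, read 8.67 and 8.81, then 8.67 and 9.03. Their p63 minus GFP differences lay between -0.23 and 0.22, within the central 95% of all genes. Igfbp6, which prefers IGF2, was dim throughout at 5.56 and 5.26 with GFP and 5.32 and 4.64 with p63, so its differences of -0.23 and -0.62 concern signal near background.

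The lines next show 250 bases before a RefSeq start of the 3 binding protein genes that were called higher with p63 in both comparisons, so that the stretches can be read beside these values. They are from GRCm38.p6, on the strand of the gene, 5′ to 3′: chr1:72824230-72824479 for Igfbp2 (plus strand), chr11:7213924-7214173 for Igfbp3 (minus strand) and chr1:72874866-72875115 for Igfbp5 (minus strand). Igfbp2 has a further start downstream that is not shown. Capitals mark each 4-base core (CNNG with an A or a T at both inner positions) of the DNA element that proteins of the p53 family bind.
Igfbp2: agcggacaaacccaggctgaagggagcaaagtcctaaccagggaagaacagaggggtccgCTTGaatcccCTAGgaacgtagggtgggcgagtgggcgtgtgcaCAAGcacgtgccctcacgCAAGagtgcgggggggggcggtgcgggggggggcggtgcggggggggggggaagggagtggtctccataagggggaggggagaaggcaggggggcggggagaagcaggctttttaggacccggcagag
Igfbp3: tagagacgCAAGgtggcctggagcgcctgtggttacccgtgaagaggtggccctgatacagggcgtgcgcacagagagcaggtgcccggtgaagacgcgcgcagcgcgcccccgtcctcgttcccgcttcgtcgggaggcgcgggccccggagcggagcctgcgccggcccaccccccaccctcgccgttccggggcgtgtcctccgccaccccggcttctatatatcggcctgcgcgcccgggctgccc
Igfbp5: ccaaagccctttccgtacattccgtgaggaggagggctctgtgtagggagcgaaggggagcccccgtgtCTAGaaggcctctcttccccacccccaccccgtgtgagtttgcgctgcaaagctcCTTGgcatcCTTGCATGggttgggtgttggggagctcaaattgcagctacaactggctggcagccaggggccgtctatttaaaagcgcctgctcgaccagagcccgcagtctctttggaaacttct
The Igfbp2 stretch held 4 cores, that of Igfbp3 held 1 and that of Igfbp5 held 4, and the median of all 32851 windows was 4 over the same 250 bases. At least 1 core occurred in 96.5% of windows, so these short matches are common. The whole decamer consensus of the p53 family, which reads the same on both strands and contains one of these cores, was searched in windows that also held 50 bases after the start. None of the windows of Igfbp2, Igfbp3 and Igfbp5 held it, with up to 1 mismatch allowed outside the 4-base core. All bases of the core, the inner A or T included, had to match. Of all windows 8.36% held it without a mismatch and 39.6% with at most 1 outside the core. Among the 14 windows of the 10 members, only 1 of the 4 starts of Igf2 held it, as AGGCTAGCTC beginning 152 bases before the start. These letters describe the windows shown and say nothing of p63 binding there or elsewhere.

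On chromosome 1, RefSeq places Igfbp2 and Igfbp5 next to each other among protein-coding genes, and on chromosome 11 Igfbp3 lies next to Igfbp1. The neighbours of the pair on chromosome 1 did not all share its values. Rpl37a, a ribosomal protein gene on the other side of Igfbp2, differed by 1.21 with mock treatment and 0.32 with etoposide. Tnp1, beyond Igfbp5, was dim on all arrays. Igfbp1, the liver-enriched binding protein beside Igfbp3, was dim on all arrays too, at 4.94 and 4.99 with GFP and 5.36 and 5.26 with p63.

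Among the ligands, Igf2, the fetal IGF encoded by an imprinted gene, read 5.52 and 5.67 on the GFP arrays and 6.08 and 6.92 on the p63 arrays. It was dim in GFP cells and highest in etoposide-treated p63 cells. The p63 minus GFP difference was 0.56 in mock-treated cells, under the threshold, and 1.25 in etoposide-treated cells, at least 2.07-fold with the dim signal raised. Igf1, a growth factor made by mesenchymal cells and liver, stayed dim on all arrays, at 5.50 and 5.21 with GFP and 5.43 and 5.48 with p63, and its highest and lowest signals differed by 0.29.

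Neither receptor gene reached the threshold between the lines. Igf1r read 8.25 and 7.22 on the GFP arrays and 8.21 and 7.89 on the p63 arrays. The lines were level without the drug, with a difference of -0.043 that turned to 0.17 with arrays centred, and p63 cells were above GFP cells by 0.67 after etoposide. Igf2r read 9.05 and 9.16 with GFP and 9.32 and 9.35 with p63, the narrowest range of the members above background on all arrays, 0.30.

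**Figure D2:**
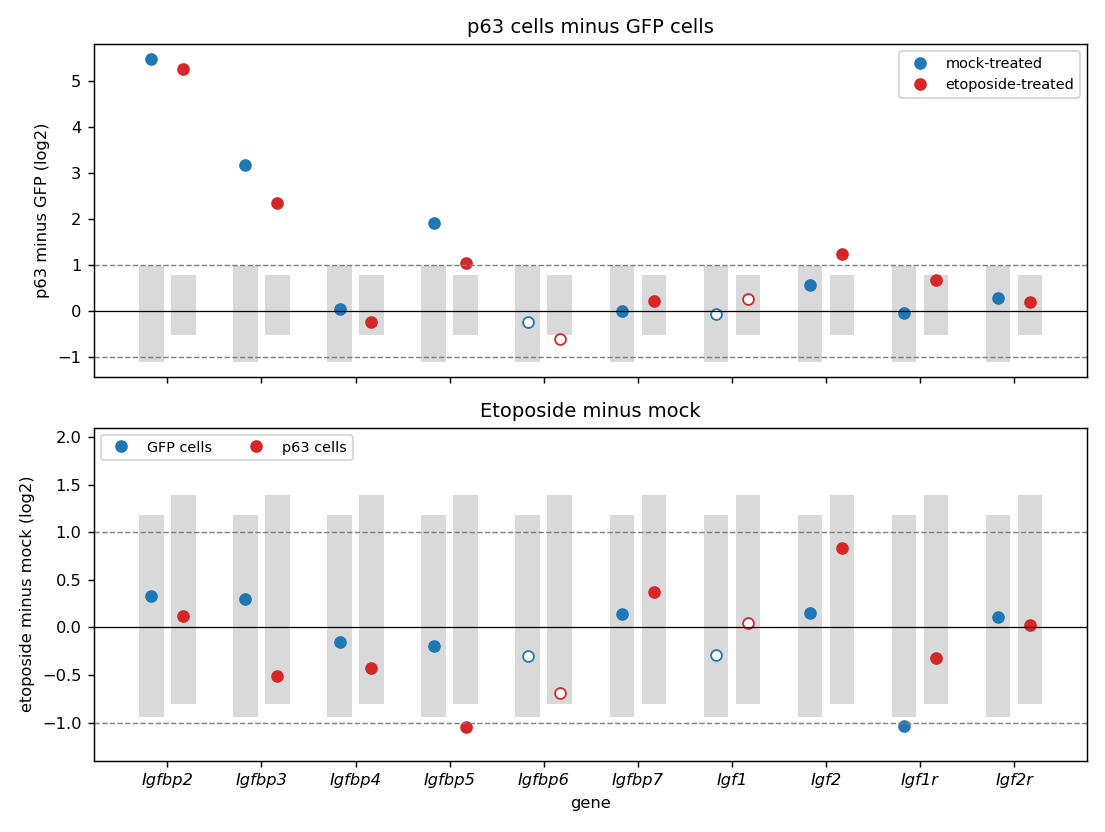
Differences (log2) of the 10 members between p63 and GFP cells (top) and between etoposide and mock treatment (bottom), 1 point per comparison. Grey bars span the central 95% of the 10698 genes in that comparison, dashed lines mark differences of 1 and -1, and open points are genes dim on all arrays. Igfbp2, Igfbp3 and Igfbp5 lie above the bars for p63 minus GFP under both treatments, and Igf2 does so after etoposide.

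The drug comparison asks how cells without BAX and BAK respond to DNA damage. Few members differed by 2-fold. In GFP cells Igf1r was the only member called, out of 8, and it was lower, where 5.65% of all genes were called in either direction and 2.12% were lower (1.54% with arrays centred). In p63 cells Igfbp5 was the only member called, and it was lower, where 7.61% of all genes were called in either direction and 1.33% were lower (2.46% with arrays centred). The 8 members had a median difference of 0.13 with GFP and -0.15 with p63, beside -0.08 and 0.10 for all genes. Nothing more is read from counts of 1 in 8.

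Igf1r, the signalling receptor, went from 8.25 to 7.22 with GFP, a difference of -1.03, and from 8.21 to 7.89 with p63, a difference of -0.32. Its etoposide-treated GFP signal was the lowest of the 4. The difference in GFP cells was -0.93 with arrays centred and -0.91 after cyclic loess, so the call ended under both. Igfbp5 differed by -1.05 in p63 cells, from 7.37 to 6.32, which stayed above both GFP arrays. In GFP cells it was dim under both treatments, with a difference of -0.20.

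Igfbp2 differed by 0.33 with GFP and 0.12 with p63 after the drug, small against its differences between the lines. Igf2 differed by 0.15 in GFP cells, where both signals were dim, and by 0.84 in p63 cells. Igfbp3 differed by 0.30 and -0.51, and its GFP signals were dim as well. Igfbp4 was at -0.15 and -0.43, Igfbp7 at 0.14 and 0.37 and Igf2r at 0.11 and 0.03, GFP first.

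The difference of differences, the drug response with p63 less that with GFP, was under 1 in size for all 8 members, where it reached 1 in either direction for 3.94% of all genes. The lowest were Igfbp5 at -0.85 and Igfbp3 at -0.82. They became -1.15 and -1.11 with arrays centred, and -1.05 and -0.51 with the dim GFP signals raised, so both values move with the scaling and with signals near background. The highest were Igf1r at 0.72 and Igf2 at 0.69, which became 0.42 and 0.40 with arrays centred. Igf2 stood at 0.84 with its dim GFP signals raised. The median of this measure over all genes was 0.20. The difference of differences uses all 4 arrays, among them the mock-treated p63 array, which stood apart for 78 genes but for no member.

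The genes whose signals ran most like those of the members over the 4 arrays were found by the Euclidean distance between log2 profiles, each set to a mean of 0. Nearest to Igfbp2 were Krt14 at a distance of 0.54, Krt5 at 0.84 and Serpinb5 at 0.87, the keratins of basal epidermis and a serpin of epithelium. Both keratins were dim on both GFP arrays. Krt14 differed between p63 and GFP cells by 4.94 and 4.72, or by at least 4.28 and 4.40 with the dim signals raised, and Krt5 by 4.68 and 4.48, or at least 4.02 and 3.85. Nearest to Igfbp3 were Dmkn (0.64), Fxyd3 (0.65) and Cbr2 (0.74), of which Dmkn is secreted by differentiating epidermis. Nearest to Igfbp5 were Vsnl1 (0.25), Plxna2 (0.26), a semaphorin receptor, and Marcks (0.29), a substrate of protein kinase C. For Igf2 they were Sema3c (0.12), a guidance cue, Hsd17b7 (0.15), an enzyme of cholesterol synthesis, and Slc39a4 (0.19), a zinc transporter. For Igf1r they were Zfp322a (0.08), Slc22a21 (0.10) and F2r (0.12), the thrombin receptor. Of these neighbours Vsnl1 and Slc39a4 were dim on 3 of the 4 arrays and Krt14, Krt5, Serpinb5, Dmkn, Fxyd3 and Plxna2 on 2, so their distances rest in part on signals near background. A small distance over 4 arrays describes these arrays, and many genes are compared. Genes with a wide range, such as Igfbp2, have few others near them.

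**Figure D3:**
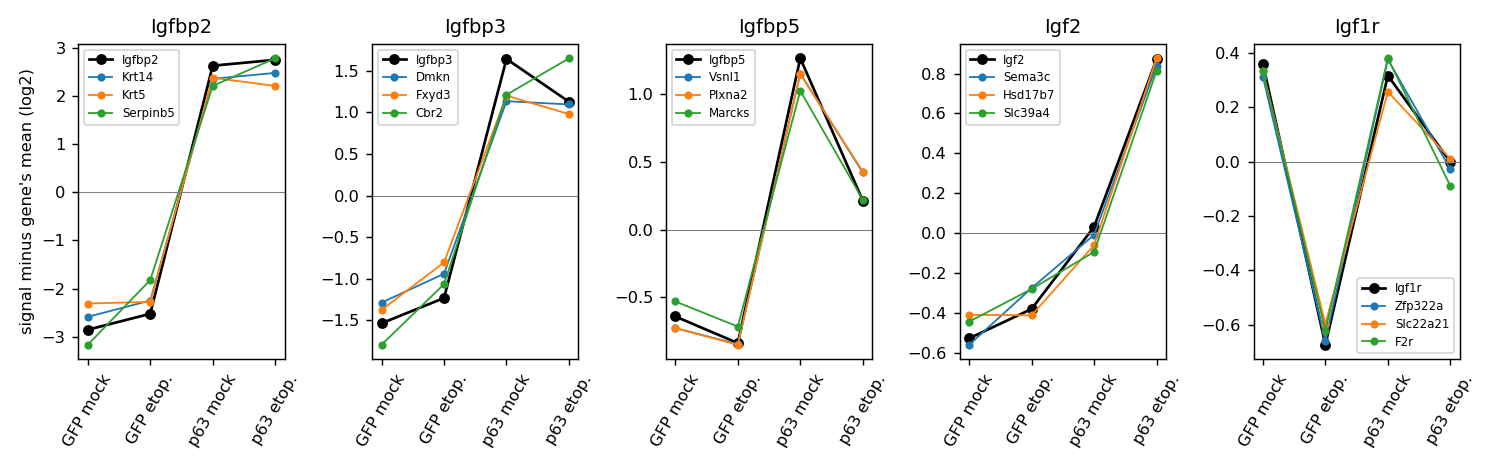
Signal minus the gene's own mean (log2) on the 4 arrays for each member called in any comparison (black) and the 3 genes nearest to it by Euclidean distance (colours), with a separate vertical scale in each panel. Lines join the points of a gene for reading only. Igfbp2 runs with Krt14 and Krt5, with both p63 arrays high.

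Markers of basal epithelium were higher with p63, as were Igfbp2, Igfbp3 and Igfbp5. Krt5, Krt14, Itga6 and Dsp, 4 of 4 on the list, were called higher with p63 in both comparisons. Itga6 was also called higher after etoposide in GFP cells, at 1.83, from 6.96 to 8.79. The 3 binding proteins differed there by 0.33, 0.30 and -0.20. The mean log2 signal of the list was 5.77 and 6.42 on the GFP arrays and 10.2 and 10.0 on the p63 arrays. Of 6 markers of simple epithelium only Krt8 reached 5.87, and Epcam and Cdh1 were dim on all arrays. Krt8 read 5.97 and 6.22 with GFP and 6.98 and 5.93 with p63. It was called higher with p63 in mock-treated cells, at 1.01, and lower after etoposide in p63 cells, at -1.05, the calls that Igfbp5 had too. Acta1, a muscle actin, was called higher with p63 in mock-treated cells, at 1.26, and stood at 0.75 in etoposide-treated cells. Cd68, a macrophage marker, was called higher after etoposide in p63 cells, at 1.68, from a dim signal. The fibroblast markers' mean was 8.24 and 8.02 with GFP and 8.11 and 7.92 with p63. The part of these genes in the difference of Igfbp2, Igfbp3 and Igfbp5 was not tested.

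Other genes of the pathway and related genes were listed in 4 lists of 87 genes, of which 79 were measured and 61 reached 5.87. The lists held genes of IGF availability with other ligands and receptors, and adaptors and PI3K to mTORC1 signalling. They also held imprinted and mRNA-binding genes, and relatives that share the IGFBP domain. Between p63 and GFP cells 6 of 61 were called in mock-treated cells, 3 higher and 3 lower, where 6.18% of all genes were called. With arrays centred these calls were 4 higher and 1 lower, where 3.81% and 1.89% of all genes were. In etoposide-treated cells 2 of 61 were called, both higher, where 1.9% of all genes were. The median difference of the 61 genes was -0.25 and 0.02, beside -0.14 and 0.02 for all genes. Cdkn1c, an imprinted inhibitor of cyclin-dependent kinases, was the only listed gene called in both. It stood on the list of imprinted and mRNA-binding genes. Its signal was 6.45 and 7.23 on the GFP arrays and 8.71 and 8.90 on the p63 arrays. Both p63 arrays were above both GFP arrays, by 2.26 with mock treatment and 1.66 with etoposide.

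The genes called in only 1 of these comparisons are named here after their values were seen. Htra1, a secreted protease with an IGFBP domain, differed by 0.69 with mock treatment and 1.20 with etoposide. Grb14, an adaptor that inhibits insulin receptor signalling, stood at 1.10 and 0.42 but was dim on both GFP arrays, and its call ended, at 0.66, with the dim signals raised. Ccn5, a matricellular relative, stood at 1.24 and 0.27, and for it the mock-treated p63 array alone stood apart. Lower in mock-treated p63 cells were Irs1, the docking protein of Igf1r and the insulin receptor, at -1.03 and -0.22, Phlpp1, a phosphatase of AKT, at -1.09 and 0.28, and Ccn2, connective tissue growth factor, at -1.26 and 0.61. None of these 3 was lower by 1 in etoposide-treated cells. For Irs1 and Phlpp1 the mock-treated GFP array alone stood apart: Irs1 read 7.35 there against 6.12, 6.33 and 5.91 on the other arrays, and Phlpp1 7.74 against 6.45, 6.65 and 6.73. With arrays centred both calls ended, at -0.81 and -0.87, and the median of the 2 probe sets of Irs1 gave -0.59.

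After etoposide 6 of the 61 genes were called in GFP cells, 3 higher and 3 lower, and 4 in p63 cells, 3 higher and 1 lower, where 5.65% and 7.61% of all genes were. With arrays centred the calls in GFP cells were 5 higher and 3 lower, where 4.38% and 1.54% of all genes were. In p63 cells they were then 2 higher and 1 lower, where 3.8% and 2.46% of all genes were. Without centring, the median difference of the 61 genes was -0.08 and 0.10, equal to that of all genes at this rounding. Plau, the urokinase protease that activates plasmin, was the only gene called in both lines. It read 8.21 and 10.17 with GFP and 8.95 and 9.96 with p63, so that both etoposide arrays were above both mock arrays, by 1.96 and 1.01. The p63 difference was 0.81 with arrays centred and 0.91 after cyclic loess, so that call ended under both. Named after their values were seen, Plat, the tissue plasminogen activator, stood at 1.45 in GFP and 0.65 in p63 cells, and Socs3, a feedback inhibitor of cytokine receptors, at 1.21 and 0.46. The median of the 2 probe sets of Socs3 gave 0.67 and -0.29. Pappa, the protease that cleaves Igfbp4, stood at -1.36 and -0.69 and was dim after etoposide in both lines, and its call in GFP cells ended, at -0.82, with the dim signals raised. Irs1 was at -1.23 and -0.42 and Phlpp1 at -1.29 and 0.08. Both GFP values rest on the mock-treated GFP array that stood apart for these genes and that also enters their p63 minus GFP differences, and the median of probe sets gave -0.67 for Irs1. In p63 cells Foxo3, a transcription factor restrained by AKT, stood at 1.21, after 0.92 in GFP cells, and Ccn2 and Ccn5 at 2.02 and -1.37, after 0.15 and -0.40. The value of Ccn5 rests on the mock-treated p63 array that stood apart for it. Foxo3 was at 1.01 in p63 and 1.02 in GFP cells with arrays centred.

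**Figure D4:**
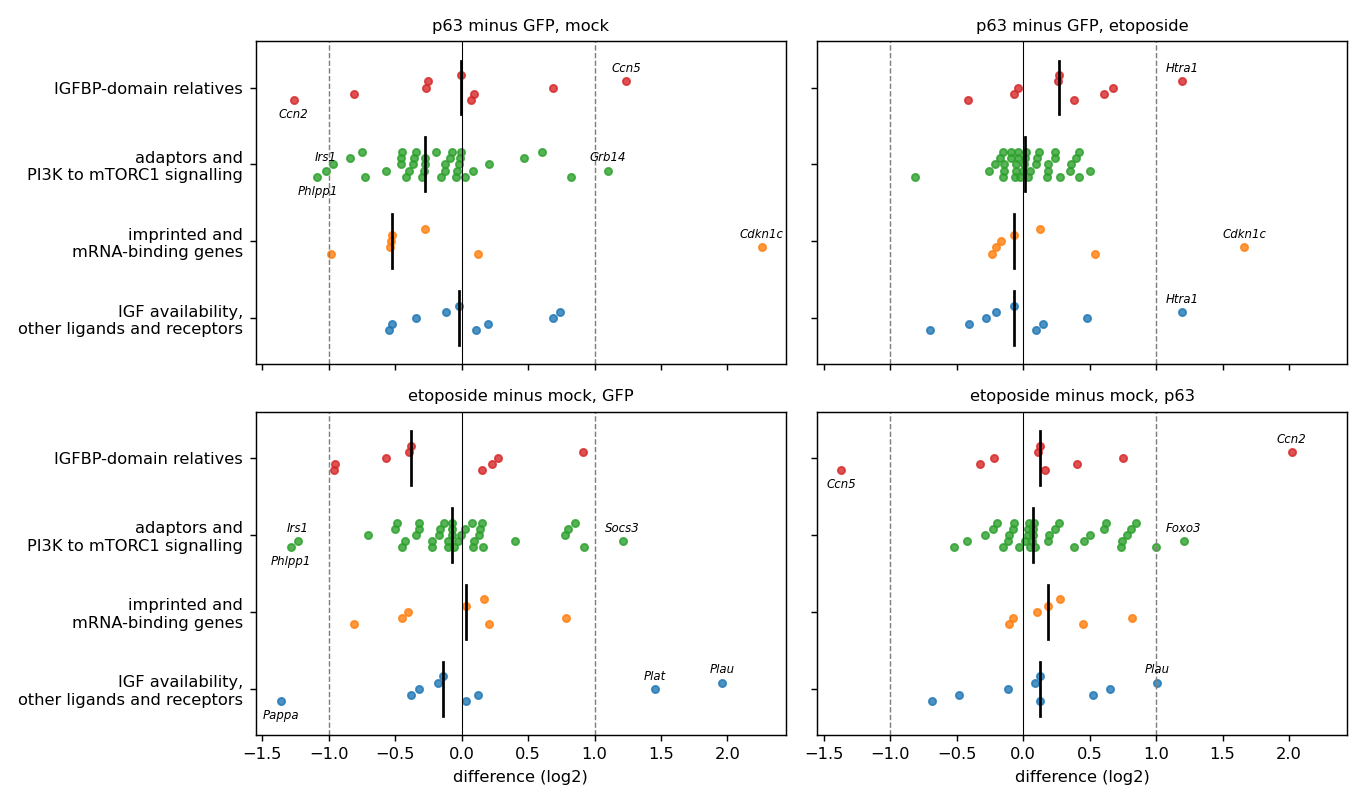
Differences (log2) of the listed pathway and related genes that reached 5.87, by list, in the 4 comparisons, with 1 point per gene. The list's median is a black bar and dashed lines are at 1 and -1. Genes past the dashed lines are named, and Htra1 stands on both the availability and the relatives list. Cdkn1c is at 2.26 and 1.66 in the comparisons of p63 with GFP cells.

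Some core genes downstream of the receptor and beside it differed little, and are named after their values were seen. The kinase gene Akt1 read 9.21 and 9.18 with GFP and 9.20 and 9.23 with p63. Pik3ca, a catalytic subunit of PI3K, read 9.55 and 9.47, then 9.42 and 9.51. The insulin receptor gene Insr, a close relative of Igf1r, read 8.54 and 8.22, then 8.43 and 8.31.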

How the data were processed

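Gene expression was measured on 4 arrays, 1 per condition. Per the submitters' processing notes, the authors made the deposited log2 values with RMA in Affymetrix Expression Console. Neither its version nor a genome build is given in the sources used here. The log base is inferred: values span 1.27 to 14.4. RMA equalises the intensity distributions of the arrays, so a shift shared by most genes is largely removed. Precision is limited by the number of arrays, which hold no counts.

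Of 35512 probe sets, a platform annotation of the array gave 21789 exactly 1 gene symbol, 1621 several and did not list 12102. Symbols were updated through Entrez identifiers in a RefSeq table (GRCm38.p6), where 21698 matched. The probe set with the highest mean stood for a gene. Genes whose highest signal reached the 50th percentile of named probe sets (5.87) were kept. Differences were taken between arrays and called at 1. No test was made. An array stood apart for a gene if at least 1 from each other array while those lay within 0.5 of one another. The calling steps were tested on simulated data. Promoter sequences are from RefSeq (GRCm38.p6), and all 10 members matched. Python 3.11.15, pandas 2.3.3 and limma 3.58.1 were used.

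The members, gene lists and alternatives were chosen with earlier results of these data known. The rule for names took all members, listed genes called in both comparisons of an effect, Trp63, and the 3 kept genes nearest in profile to each member called, without clone or predicted names. The alternatives were no filter, the 75th percentile (7.82), a threshold of 1.5-fold, a median over probe sets of a gene, centring of arrays on their medians, cyclic loess, and dim signals raised to the filter.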

Additional observations from a re-analysis of the deposited data

Results flagged for a closer look

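A difference with opposite signs in the 2 settings of a comparison was looked for among the 8 members above background on at least 1 array. With 1 array per condition each sign rests on 2 arrays, and none of these differences between settings was tested. After etoposide, Igfbp3 was at 0.30 with GFP and -0.51 with p63. Between p63 and GFP cells, Igfbp4 was at 0.050 with mock treatment and -0.23 with etoposide, Igfbp7 at -0.0030 and 0.22, and Igf1r at -0.043 and 0.67. The opposite signs of Igfbp7 and Igf1r depend on the scaling. Their mock-treated differences turned to 0.21 and 0.17 with arrays centred and to 0.20 and 0.13 after cyclic loess. With dim signals raised, Igfbp3 was at 0 in GFP cells, and Igfbp4 was at -0.14 between etoposide-treated p63 and GFP cells.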

How the results depend on the processing

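None of the members' differences past the threshold changed sign under any alternative. With the filter at the 75th percentile 5 members were kept, and Igfbp5 and Igf2 no longer passed. For p63 minus GFP in mock-treated cells 2 rather than 3 members were called, where 7.19% of all genes were. In etoposide-treated cells 2 rather than 4 were called, where 2.12% of all genes were. For etoposide minus mock in p63 cells 0 rather than 1 were called, where 9.45% of all genes were. Under that filter 39 rather than 61 related genes were kept, and 3 rather than 6 were called for p63 minus GFP in mock-treated cells, where 7.19% of all genes were, and 2 rather than 6 for etoposide minus mock in GFP cells, where 6.43% were. At 1.5-fold, 2 members were called for etoposide minus mock in p63 cells, where Igf2 joined Igfbp5 and 22% of all genes were called, and 5 for p63 minus GFP in etoposide-treated cells, where Igf1r joined and 6.78% were. At that threshold the related genes called were 16 and 6 of 61 for p63 minus GFP in mock-treated and etoposide-treated cells, where 22.8% and 6.78% of all genes were, and 16 in each line for etoposide minus mock, where 18.8% in GFP and 22% in p63 cells were. With arrays centred and after cyclic loess, 0 members were called for etoposide minus mock in GFP cells, where 5.93% and 5.87% of all genes were. For p63 minus GFP in etoposide-treated cells, 3 rather than 4 members were called with arrays centred, where 1.72% of all genes were. With dim signals raised 3 were called there too, where 1.42% of all genes were. Centring moved the median p63 minus GFP difference of all genes in mock-treated cells from -0.14 to 0.07, and that of etoposide minus mock in p63 cells from 0.10 to -0.10. The members have 1 probe set each, so the median of probe sets gave the same values. No paired analysis was possible because each condition has 1 array. Signals near background limit Igf1 and Igfbp6 on all arrays and Igfbp3, Igfbp5 and Igf2 in GFP cells. They also limit Igfbp2 on the mock-treated GFP array, at 5.62, and Igfbp4 on the etoposide-treated p63 array, at 5.78.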

Other observations

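Tensins, proteins of focal adhesions, are encoded next to several of the binding protein genes in the RefSeq order of protein-coding genes. Tns3 lies beside Igfbp3 and Tns4 beside Igfbp4, and Tns1 and Tns2 lie 2 genes from Igfbp5 and Igfbp6. Tns1 read 7.64 and 8.14 on the GFP arrays and 9.96 and 7.68 on the p63 arrays, mock first. It was high on the mock-treated p63 array alone, with p63 minus GFP differences of 2.31 and -0.45. This is the brightest of its 6 probe sets, and the median over them gave 0.27 and 0.18. Tns3, at 7.65 and 7.41 with GFP and 7.60 and 7.52 with p63, did not share the high p63 signals of Igfbp3. Top2a, a topoisomerase that etoposide traps, lies on the other side of Igfbp4. After etoposide Top2a differed by -1.02 in GFP cells (-0.93 with arrays centred) and -1.21 in p63 cells. Igfbp4 was at -0.15 and -0.43. These genes were chosen for their position after their values were seen.

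The mRNA-binding protein genes Igf2bp1 and Igf2bp3, whose products bind Igf2 mRNA, were highest in mock-treated GFP cells. Igf2bp3 read 8.41 and 7.60 with GFP and 7.43 and 7.53 with p63, and Igf2bp1 read 8.54 in those cells. Neither had a difference of 1 in any comparison.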
